A study of Mus musculus with 2 samples.

Results

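Heart cells selected as mononuclear phagocytes, that is, monocytes and macrophages, were compared by the sample tag in their names, A952 against A951. The cells were selected on measured values. A cell was taken when mitochondrially encoded genes made up at most 25% of its counts, Csf1r reached 50 CPM (counts scaled to a total of 1000000 per cell, or per set of cells for summed levels), and Cd79a and Cd3e, markers of B and T cells, were each under 50 CPM. Of 878 cells in the matrix, 312 met this rule, and 200 of them were named A952 (71 cells) or A951 (129 cells). Both sets were then split by the summed level of C1qa, C1qb and C1qc at 200 CPM. This gave 19 C1q-positive and 52 C1q-negative cells named A952, and 16 and 113 named A951.

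All cells came from hearts of Cdh5-CreERT2;REFLEX mice given tamoxifen and operated by transverse aortic constriction, a narrowing of the aorta that overloads the left ventricle. The Cdh5 promoter directs the inducible Cre recombinase to endothelial cells, and GFP marks cells labelled by the REFLEX system. Fractions with and without GFP and with and without the leukocyte surface protein CD45 were sorted, pooled and processed on the BD Rhapsody bead platform with the TAS-Seq workflow, which gave 1 transcriptome library and 1 hashtag library. How many hearts were pooled, and the age of the mice, are not stated in the labels, and no source used here says which sorted fraction carried tag A952 or A951. With 1 pool there is no replicate and the cells are not replicates, so no test was made, and intervals are exact 95% intervals that cover counting error only.

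CSF1R is the receptor for colony stimulating factor 1, on which monocytes and macrophages depend for survival. Classical monocytes, high in Ly6c2 and Ccr2, enter inflamed heart tissue from the blood, patrolling monocytes, high in Ace and Treml4, stay along the vessel wall, and macrophages in tissue make the complement protein C1q. MHC class II molecules present peptides to CD4 T cells, and their level separates well-known kinds of cardiac macrophages.

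The selected cells were not all mononuclear phagocytes by their other genes. Among C1q-negative cells, Cxcr2, a chemokine receptor of neutrophils, reached 50 CPM in 21 of 52 cells named A952 and 33 of 113 named A951, a split chosen after seeing the data. Every cell of both Cxcr2-positive sets also had Csf3r, the granulocyte colony stimulating factor receptor, at 50 CPM or more, as did 9 of 31 and 30 of 80 Cxcr2-low C1q-negative cells and 5 of 19 and 3 of 16 C1q-positive cells. S100a8 and S100a9, the subunits of calprotectin, together reached 5000 CPM in 18 and 30 of them, against 0 of 31 and 4 of 80 cells with Cxcr2 under 50 CPM. The summed level of 18 cytosolic ribosomal protein genes was 12039 and 9300 CPM in the Cxcr2-positive sets, and 45616 and 51541 CPM in the Cxcr2-low sets. Ccr2 reached 50 CPM in 0 of 21 and 1 of 33 Cxcr2-positive cells. These cells meet the Csf1r rule, with medians of 124 and 235 CPM, but carry neutrophil markers, and C1q-negative cells are described below mainly without them. No cell of either C1q-positive set had Cxcr2 at 50 CPM.

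Neutrophil markers were widespread: 58 of 71 cells named A952 and 114 of 129 named A951 had 3 or more of 12 at 50 CPM, C1q-positive cells among them with 13 of 19 and 11 of 16. That level is low for S100a8, which had medians of 98.3 CPM in 48 B cells and 112 CPM in 15 T cells named A951. Retnlg and Lcn2, also on the list, had medians of 13.5 and 0 CPM in those B cells and 7.98 and 0 CPM in those T cells. The count thus does not by itself make a cell a neutrophil. Markers of most other cells were scarce. No cell in any C1q class had 3 or more markers of endothelial cells, fibroblasts, pericytes, B cells, T cells or NK cells at 50 CPM, and 1 Cxcr2-positive cell named A952 did so for cardiomyocytes. For B and T cells this was partly fixed by the rule, since Cd79a and Cd3e are on their lists. The Cd79a and Cd3e limits removed 1 cell named A952 and 0 named A951 that otherwise met the rule. For conventional dendritic cells this count was 4 of 19 C1q-positive cells named A952 and 0 of 16 named A951, and 2 of 52 against 1 of 113 in C1q-negative cells. The summed level of the 11 dendritic cell markers in the matrix ranged from 0.800 to 3920 CPM in C1q-positive cells named A952 and from 0 to 547 CPM in those named A951. That of 12 endothelial markers, the cell type in which Cdh5 drives Cre, had medians of 17.1 and 12.1 CPM in these cells.

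Depth differed between the sets. Estimated counts per cell had a median of 282605 in C1q-positive cells named A952 (103585 to 694419) and 214967 in those named A951 (52738 to 439458), and of 90529 against 106930 in C1q-negative cells. The mitochondrial share of C1q-positive cells had medians of 2.13% and 1.84%. In 67 of 71 cells named A952 and in 129 of 129 named A951, the tag of the name outnumbered every other tag, with medians of 167 and 159 counts. At the thresholds, the Csf1r levels nearest 50 CPM were 48.2 and 55.8 CPM in cells named A952 and 48.5 and 51.1 CPM in those named A951. The C1q sums nearest 200 CPM were 145 and 754 CPM under A952, and 194 and 360 CPM under A951.

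Cells that met the rule made up 71 of 134 cells named A952 (53.0%, 44.2 to 61.7) and 129 of 331 named A951 (39.0%, 33.7 to 44.5). Without the Cxcr2-positive cells they were 50 of 134 (37.3%, 29.1 to 46.1) and 96 of 331 (29.0%, 24.2 to 34.2), with overlapping intervals. C1q-positive cells were 26.8% of them under A952 (16.9 to 38.6) and 12.4% under A951 (7.26 to 19.4), and these intervals overlap. Among the selected cells of the other names, 8 of 74 named A965 (10.8%) and 1 of 23 named A953 were C1q-positive. With Cxcr2-positive cells left out, the C1q-positive share was 19 of 50 (38.0%, 24.7 to 52.8) under A952 and 16 of 96 (16.7%, 9.84 to 25.7) under A951. C1q-negative cells with low Cxcr2 made up 43.7% of the A952 set and 62.0% of the A951 set, while Cxcr2-positive cells made up 29.6% and 25.6%.

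**Figure D1:**
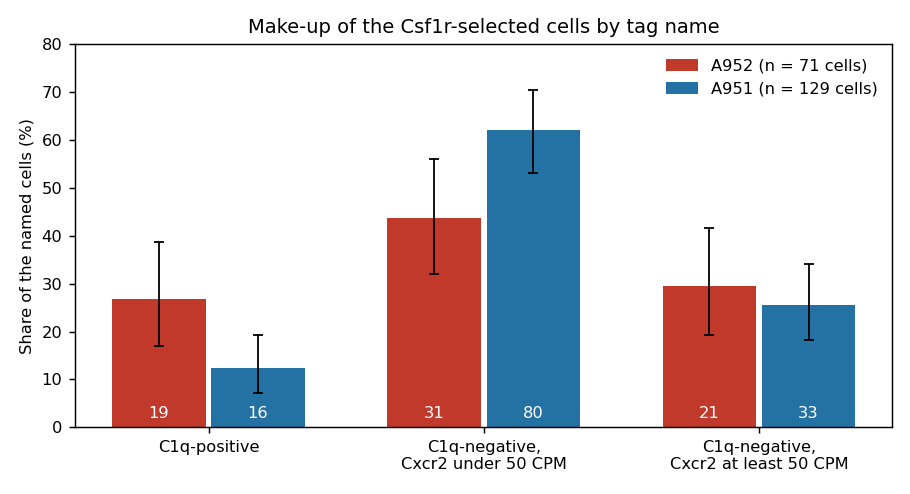
Share of the selected cells (%, vertical axis) in each of 3 classes for the 71 cells named A952 (red) and the 129 named A951 (blue). Bars carry their cell numbers and exact 95% intervals for counting error. C1q-positive cells are 26.8% of the red and 12.4% of the blue set, and the Cxcr2-positive shares lie close together.

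The tag counts behind the names were uneven within A951. The median count of the A951 tag was 3567 in its Cxcr2-positive cells, 104.5 in its other C1q-negative cells and 113 in its C1q-positive cells. At least 1000 counts of that tag were found in 26 of 33, 12 of 80 and 0 of 16 of these cells. In cells named A952 the medians of the A952 tag were 122, 130 and 281 in the same order, and 1 of 21, 3 of 31 and 1 of 19 cells reached 1000 counts. Within the 80 Cxcr2-low C1q-negative cells named A951, the 12 with at least 1000 tag counts had a median Ccr2 of 22.6 CPM and a median Ace of 365 CPM. The other 68 had medians of 409 and 6.65 CPM. The tag count thus moved with the kind of cell inside a single name, and its part in the differences between names was not tested.

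**Figure D2:**
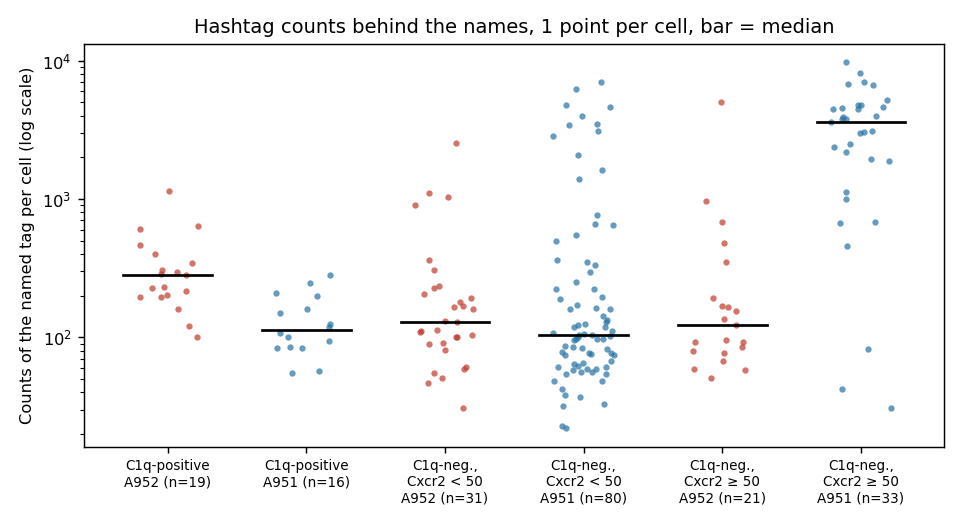
Counts of the tag in the cell's name (vertical axis, log scale), 1 point per cell, bar at the median, for the 3 classes under A952 (red) and A951 (blue). The 33 Cxcr2-positive cells named A951 have a median of 3567 tag counts, far above the other 5 sets, whose medians run from 104.5 to 281.

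Among C1q-positive cells, more of those named A952 were high in MHC class II. H2-Eb1, a beta chain, ranged from 5.15 to 12159 CPM in the 19 cells named A952, with a median of 4142 CPM, and from 9.77 to 11233 CPM in the 16 named A951, with a median of 61.8 CPM. The ranges overlap almost entirely, and the sets differ in how many cells are high: 11 of 19 (57.9%, 33.5 to 79.7) against 4 of 16 (25%, 7.27 to 52.4) reached 1000 CPM. The 8 cells named A952 under that level ran from 5.15 to 35.5 CPM, and the 12 named A951 from 9.77 to 368 CPM with a median of 31.6 CPM. Neutrophils of the pool, which should lack class II, had medians of 18.5 CPM under A952 and 17.8 CPM under A951.

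The partner genes followed the same cells. H2-Aa, the alpha chain, had medians of 5416 and 174 CPM, and H2-Ab1, a second beta chain, had medians of 5990 and 112 CPM. Cd74, the invariant chain that escorts class II molecules to the endosome, had medians of 14090 and 845 CPM. Over the 35 C1q-positive cells of both names, the rank correlation (Spearman) of H2-Eb1 was 0.92 with H2-Aa, 0.86 with H2-Ab1 and 0.87 with Cd74, and -0.05 with the total count of the cell. These cells share 1 library, and the correlations are descriptions. Among the 8 C1q-positive cells named A965, 3 had H2-Eb1 at 1000 CPM or more.

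Mgl2 and Cd209a, lectins of dendritic cells, were found in more of the class II-high than of the other cells under A952. Mgl2 reached 50 CPM in 6 of the 11 cells with high H2-Eb1 and 1 of the 8 others under A952, and in 1 of 4 and 0 of 12 under A951. The summed Cd209a was 524 CPM in the 11 high cells, 0 CPM in the 8 others and 1.04 CPM in the 4 high cells named A951. It reached 50 CPM in only 3 of the 11, with a median of 0 CPM. A single cell held nearly all of the Cd209a counts and most of the Mgl2 counts under A952. With 4 of 19 against 0 of 16 cells carrying at least 3 dendritic cell markers, their part in the class II difference was not tested.

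Summed over the cells, H2-Eb1 was 4354 CPM under A952 and 1297 CPM under A951, a ratio of 3.36 (3.26 to 3.46), and the ratios were 2.92 for H2-Ab1, 2.25 for H2-Aa and 2.16 for Cd74. Of the 10 genes on the MHC class II list, 7 had enough counts and 5 were at least 2-fold higher under A952, with a median log2 ratio of 1.13. Over all 3196 genes with enough counts, 4.07% were at least 2-fold higher and 8.95% at least 2-fold lower, and the median log2 ratio was -0.15. H2-DMb1, part of the peptide-loading chaperone, was 468 against 202 CPM. Ciita, the master regulator of class II transcription, was low in both sets, at 11.4 (8.85 to 14.5) and 12.3 (9.00 to 16.4) CPM. Leaving out every cell with at least 3 neutrophil markers at 50 CPM kept only 6 and 5 C1q-positive cells. H2-Eb1 was then near level, with a log2 ratio of -0.07. The direction turned for H2-Aa (-0.98), H2-Ab1 (-0.44) and Cd74 (-0.70). That filter removes most cells of every class, 45 of 52 and 103 of 113 C1q-negative cells among them.

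The promoters of H2-Aa and H2-Eb1 are shown because these genes moved together from cell to cell. Promoters of MHC class II genes carry a Y box, an inverted CCAAT motif bound by NF-Y. Capitals mark GATTGG and its reverse complement CCAATC in the 150 bases before each gene's start, read 5′ to 3′ on the strand of the gene. Sequences and positions are from RefSeq on build GRCm38.p6, H2-Aa on the minus strand at chr17:34287824-34287973 and H2-Eb1 on the plus strand at chr17:34305717-34305866.
H2-Aa: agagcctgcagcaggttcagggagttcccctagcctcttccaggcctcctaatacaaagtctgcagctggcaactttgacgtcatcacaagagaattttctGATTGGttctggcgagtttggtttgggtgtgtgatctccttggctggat
H2-Eb1: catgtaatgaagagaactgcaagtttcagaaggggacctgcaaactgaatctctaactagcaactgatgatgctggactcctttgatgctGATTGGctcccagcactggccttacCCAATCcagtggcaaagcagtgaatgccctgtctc
H2-Aa held 1 match, and H2-Eb1 held 1 on each strand. Of 32851 promoter windows of the same length, 3595 (10.9%) held GATTGG on either strand, so a match describes the letters only.

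Several immediate early and stress genes were higher in C1q-positive cells named A952. Egr1, a transcription factor induced within minutes of stimulation, ranged from 0 to 2167 CPM with a median of 162 CPM under A952, and from 0 to 190 CPM with a median of 7.11 CPM under A951. It reached 50 CPM in 12 of 19 against 2 of 16 cells, and in 4 of 8 cells named A965. The summed levels were 469 and 32.3 CPM, a ratio of 14.5 (12.1 to 17.6). The ranges of the 2 names overlap below 190 CPM. The 8 cells named A965 reached 5194 CPM and summed to 1157 CPM, so high Egr1 was not particular to the name A952.

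Other genes of that list differed less. Jun was 674 against 212 CPM and Fos 2986 against 1365 CPM as sums, both subunits of the AP-1 transcription factor, while Junb was 1035 against 856 CPM and Atf3 1230 against 1151 CPM. Of 20 immediate early genes, 19 had enough counts, 5 were at least 2-fold higher, 1 was at least 2-fold lower (4.07% and 8.95% of all genes), and the median log2 ratio was 0.59. Gdf15, a secreted stress cytokine of the TGF-beta family, was at 50 CPM or more in 6 of 19 cells named A952 and in 0 of 16 named A951, with an exact interval of 0 to 20.6%. Its highest values were 1254 and 6.60 CPM. In the C1q-negative Cxcr2-low cells Egr1 reached 50 CPM in 10 of 31 (32.3%) against 21 of 80 (26.25%) cells, and in Cxcr2-positive cells in 13 of 21 against 22 of 33. Whether the difference between the names itself differs by class was not tested.

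A further group was made of genes seen in many cells rather than a few. Cd63, a tetraspanin of late endosomes and lysosomes, had medians of 567 and 4.1 CPM, with 13 of 19 against 4 of 16 cells at 50 CPM or more. Tspan13, another tetraspanin, had medians of 67.0 and 6.35 CPM, with 10 against 2 cells. Fabp5, a fatty acid-binding protein, had medians of 50.9 and 0 CPM, with 10 against 2 cells, and 84.3% of its counts under A951 came from 1 cell. When each cell named A952 was paired with each named A951, the A952 cell was higher in 77.6% of pairs for Cd63, 76.3% for Tspan13 and 75% for Fabp5. These genes were named for the size of their ratio, so the pair shares are a description. After thinning each cell to 25000 counts, Cd63 was found in 14 of 19 against 6 of 16 cells and Fabp5 in 11 against 2, and unthinned in 17 against 11 and 16 against 6.

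These genes did not track MHC class II. The rank correlation with H2-Eb1 over the 35 cells was -0.17 for Cd63, -0.06 for Fabp5, -0.13 for Tspan13 and 0.18 for Egr1, while Egr1 and Gdf15 had 0.54. Among cells with H2-Eb1 at 1000 CPM or more, Cd63 reached 50 CPM in 7 of 11 named A952 and 0 of 4 named A951, and Fabp5 in 6 of 11 and 0 of 4. Without cells carrying at least 3 neutrophil markers, the log2 ratio of Fabp5 was -1.15.

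Several monocyte and dendritic cell genes were higher through few cells. Ly6c2 reached 200 CPM in 4 of 19 C1q-positive cells named A952 and 0 of 16 named A951, with medians of 4.64 and 4.49 CPM. Mgl2, a lectin of dendritic cells and some macrophages, was above 0 in 8 and 2 cells, and Cd209a, a lectin of monocyte-derived dendritic cells, was at 50 CPM or more in 3 and 0 cells. A single cell held 97.2% of the Cd209a counts under A952 and 63.0% of those of Mgl2. Mmp12, the macrophage elastase, had 56.5% of its A952 counts in 1 cell. Ccl2, which draws monocytes through CCR2, was more evenly spread, with medians of 1493 and 262 CPM and summed levels of 2497 and 721 CPM.

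By summed counts, 286 genes were at least 2-fold lower and 130 at least 2-fold higher under A952 in C1q-positive cells, together 13% of the genes compared. Centred on the median of all genes, which sets the median log2 ratio to 0, the numbers were 183 lower and 192 higher. The excess of lower genes was kept under other settings. It was 486 lower and 163 higher with each cell weighted alike, and 429 and 124 after thinning to 25000 counts. Without the cell with most counts of each gene it was 176 lower and 89 higher. Runx3, a transcription factor of the Runt family, ranged from 0 to 195 CPM with a median of 6.31 CPM under A952, and from 0 to 2408 CPM with a median of 137 CPM under A951. It reached 50 CPM in 7 of 19 against 11 of 16 cells, and the A952 cell was higher in 23.4% of pairs. In the C1q-negative Cxcr2-low cells Runx3 reached 50 CPM in 10 of 31 against 37 of 80. Rabl6 had medians of 0 and 20.7 CPM and Tcp11l2 medians of 6.31 and 65.7 CPM. Without cells carrying at least 3 neutrophil markers the direction turned for Rabl6 (log2 ratio 0.49), while Saa3 (0.033) and Airn (0.11) were near level. Saa3, an acute-phase serum amyloid, was 1.70 against 1223 CPM as sums, but 1 cell named A951 held 89.8% of its counts there, and 3 of 16 A951 cells and 0 of 19 A952 cells reached 50 CPM. Tmem170 and Airn likewise had 91.0% and 98.0% of their A951 counts in 1 cell.

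Lyve1, Timd4 and Folr2, markers of long-lived resident macrophages, reached 50 CPM in few cells under both names. Selenop, on the same marker list, did so in 17 of 19 and 15 of 16 cells. Of 15 resident markers, 10 had enough counts, 3 were at least 2-fold higher under A952 (Cd63, Lyve1 and the chemokine Ccl8) and Folr2 was at least 2-fold lower, with a median log2 ratio of 0.94. Over all genes in C1q-positive cells, 4.07% were at least 2-fold higher and 8.95% at least 2-fold lower, with a median of -0.15. Under 50% of all genes were thus higher under A952 at all. Lyve1, a hyaluronan receptor, reached 50 CPM in 1 cell of each set, Timd4, a phosphatidylserine receptor, in none, and Folr2, a folate receptor, in 3 of 19 and 5 of 16 cells. Selenop, a selenium carrier, was 1454 against 741 CPM as sums, with medians of 801 and 521 CPM. Apoe, an apolipoprotein, had medians of 9036 and 9662 CPM, and its ranges of 1289 to 79535 and 341 to 16244 CPM overlap. Spp1, osteopontin, which marks lipid-laden macrophages, was 2018 and 3294 CPM as sums. A single cell held 55.1% of the A951 counts, and the log2 ratio of -0.70 became 0.30 without the cell with most counts. Trem2, a lipid receptor, was 332 against 346 CPM and Mrc1, the mannose receptor, 481 against 440 CPM. The lysosome and cathepsin list had a median log2 ratio of 0.41, with 14 of 17 genes higher under A952 and none past 2-fold. Interferon response genes were higher in most cell pairs: 7 of 8 with enough counts were higher, 1 at least 2-fold, and for their summed level the A952 cell was higher in 76.0% of pairs, with medians of 4169 and 1722 CPM. The list of myeloid transcription factors, which holds Runx3, had 3 of 18 genes higher and a median log2 ratio of -0.32. On that list 2 genes were at least 2-fold lower, near the 8.95% of all genes.

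**Figure D3:**
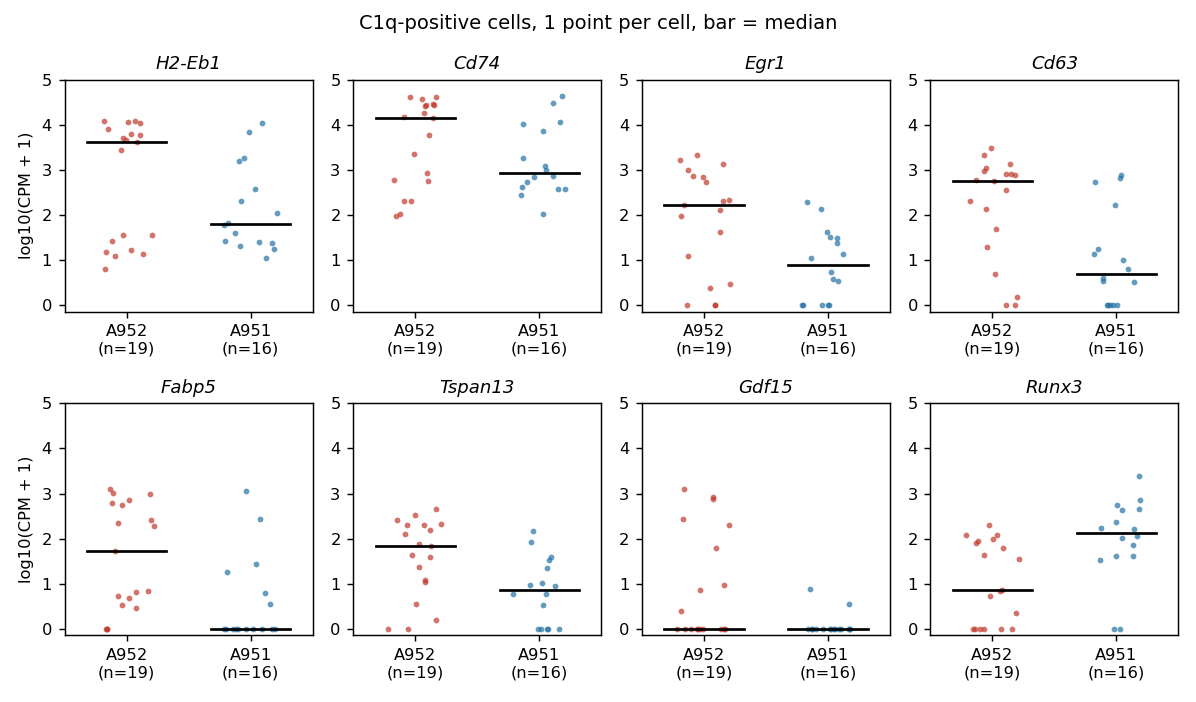
Levels of 8 genes in C1q-positive cells (vertical axis, log10 of CPM plus 1), 1 point per cell, bar at the median, 19 cells named A952 (red) and 16 named A951 (blue). H2-Eb1 falls into high and low cells under both names, with more high cells in red. Cd74 separates less: blue cells with H2-Eb1 under 1000 CPM reach 7127 CPM of Cd74. The lowest red cell with H2-Eb1 of at least 1000 CPM has 6074 CPM. Runx3 has the higher median in blue, 137 against 6.31 CPM.

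In C1q-negative cells several genes of classical monocytes, Vcan and Chil3 among them, were lower under A952, while others were level or rested on 1 cell. Ly6c2 reached 200 CPM in 9 of 52 cells named A952 (17.3%, 8.23 to 30.3) and 37 of 113 named A951 (32.7%, 24.2 to 42.2). With Cxcr2-positive cells left out, the shares were 7 of 31 (22.6%, 9.59 to 41.1) and 33 of 80 (41.25%, 30.4 to 52.8). The intervals overlap in both comparisons. The summed level went the other way in the Cxcr2-low cells, 1027 against 757 CPM, because 1 cell named A952 with 10623 CPM held 72.3% of the counts, and without the cell with most counts the log2 ratio was -1.25.

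Vcan, which encodes the matrix proteoglycan versican, ranged from 0 to 435 CPM in the 31 Cxcr2-low cells named A952, with a median of 0 CPM, and from 0 to 6439 CPM in the 80 named A951, with a median of 13.7 CPM. It reached 50 CPM in 6 of 31 against 35 of 80 cells. The summed levels were 51.5 and 222 CPM, 4.31-fold lower (3.82 to 4.90). Ccr2, the receptor that brings monocytes out of the bone marrow, had medians of 51.5 and 280 CPM, sums of 372 and 676 CPM, and 16 of 31 against 53 of 80 cells at 50 CPM or more. Chil3, a chitinase-like protein of monocytes, was 4510 against 9125 CPM, and Fn1, fibronectin, 359 against 475 CPM. Plac8, another gene high in classical monocytes, was 3482 against 3421 CPM, with 40.8% of the A952 counts in 1 cell and medians of 1574 and 2197 CPM. Of 11 classical monocyte markers 4 were at least 2-fold lower and 1 at least 2-fold higher (2.2% and 4.18% of all genes), with a median log2 ratio of -0.38.

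Other genes named for the size of their ratio shared this direction. Vim, vimentin, was 1202 against 2518 CPM and S100a10, the annexin A2 partner, 536 against 1094 CPM. Lmna, which encodes the nuclear lamins A and C, was 37.7 against 173 CPM, with highest cells of 221 and 1446 CPM. Areg, a ligand of the EGF receptor, was 30.8 against 143 CPM, and Hopx, a homeodomain protein, 24.8 against 127 CPM. Over all C1q-negative cells, Areg (log2 ratio 2.67) and Mmp19 (0.29) turned direction when cells with at least 3 neutrophil markers were left out, which kept 7 and 10 cells. Of 22 actin and motility genes 3 were at least 2-fold lower and none at least 2-fold higher, with a median log2 ratio of -0.31. Of 20 genes of the matrix and repair list, 11 had enough counts and 5 were at least 2-fold lower, Mmp19, a matrix metalloproteinase, and Timp1, a metalloproteinase inhibitor, among them, with a median log2 ratio of -0.75. Areg, also on that list, had enough counts only through A951, where it is high, so the count of lower genes was partly fixed by the filter. Over all 3089 genes in these cells 2.2% were at least 2-fold lower and 4.18% at least 2-fold higher, 6.38% in all, with a median of -0.01. With Cxcr2-positive cells kept in, the shares were 0.902% and 2.57% of 2993 genes, 27 lower and 77 higher (3.47% in all). With each cell weighted alike they were 43 lower and 73 higher.

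Neutrophil genes also differed in the Cxcr2-low cells, where 4 of 80 cells named A951 and 0 of 31 named A952 had S100a8 and S100a9 together at 5000 CPM or more. Of 12 neutrophil markers, 9 had enough counts and 5 were at least 2-fold lower under A952, against 2.2% of all genes, with a median log2 ratio of -1.13. Lcn2, lipocalin, was 10.5 against 172 CPM, and S100a8 had close medians of 115 and 147 CPM but highest cells of 400.4 and 26510 CPM. Cxcr2, on which these cells were cut, is on that list. Lcn2 had enough counts only through A951, where it is high, so the count of lower markers was partly fixed by the selection. The summed level of the list ranged from 143 to 13231 CPM under A952 and from 136 to 54068 CPM under A951.

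Genes of patrolling monocytes differed little. Ace, the angiotensin-converting enzyme, reached 50 CPM in 13 of 31 and 31 of 80 cells, with medians of 14.8 and 10.3 CPM. Treml4, a receptor of these cells, was 188 against 197 CPM, and Cx3cr1, the fractalkine receptor, 178 against 156 CPM. Nr4a1, the nuclear receptor on which patrolling monocytes depend, was 704 against 498 CPM and above 0 in every cell of both sets. Of the 12 markers 11 had enough counts, none was past 2-fold in either direction, and the median log2 ratio was 0.17.

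**Figure D4:**
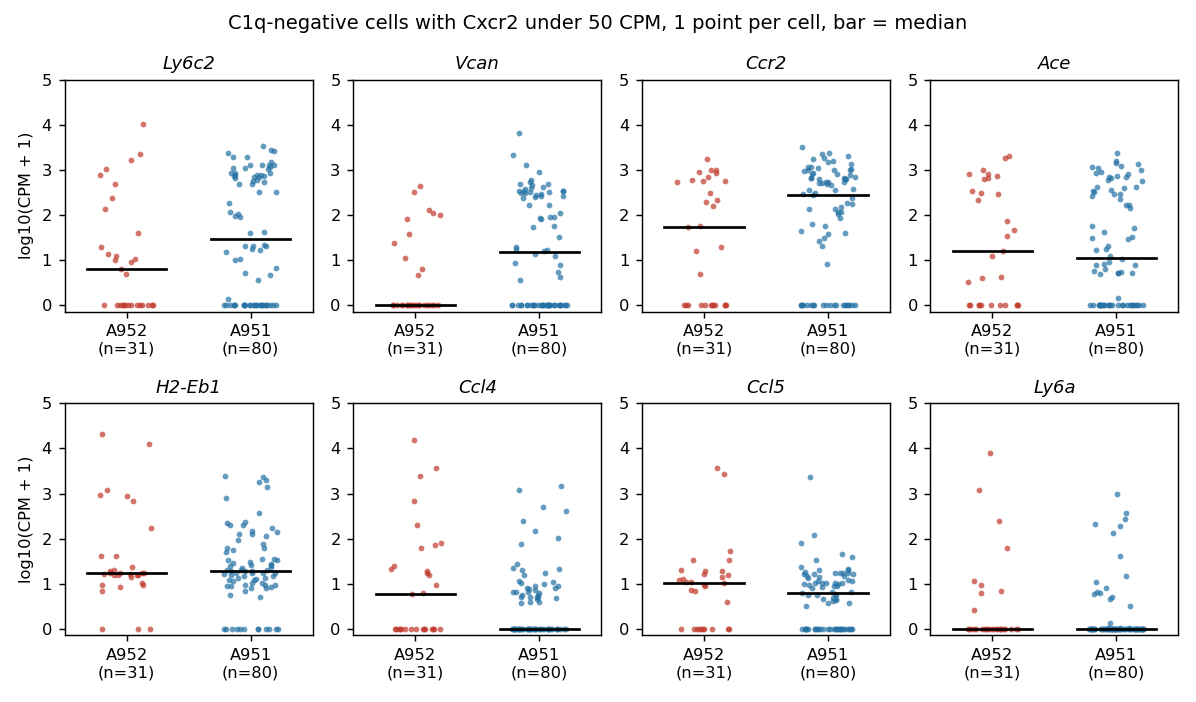
Levels of 8 genes in C1q-negative cells with Cxcr2 under 50 CPM (vertical axis, log10 of CPM plus 1), 1 point per cell, bar at the median, 31 cells named A952 (red) and 80 named A951 (blue). Vcan and Ccr2 sit lower in red. H2-Eb1 has nearly the same median in both sets, with 2 red cells far above all others.

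The MHC class II sums of C1q-negative cells were higher under A952 and rested on 2 cells. H2-Eb1 was 2200 against 177 CPM in Cxcr2-low cells, but its medians were 15.9 and 18.0 CPM, and 3 of 31 against 5 of 80 cells reached 1000 CPM. The first of the 2 cells had 21039 CPM of H2-Eb1, 2114 CPM of Cd209a and 123 CPM of Flt3, a receptor of dendritic cells and their precursors, with no Ly6c2 or Fcgr1. The second had 12384 CPM of H2-Eb1, 234 CPM of Ly6c2 and 1284 CPM of Fcgr1, the high-affinity IgG receptor. Without these 2 cells H2-Eb1 was 103 against 177 CPM and H2-Aa 439 against 540 CPM, so the order of the names turned, while Cd74 was 1909 against 1639 CPM.

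The same second cell carried most of several chemokine and interferon-stimulated genes. It held 86.0% of the A952 counts of Ccl4, a chemokine, 78.4% of those of Ccl3 and 86.8% of those of Ly6a, an interferon-inducible surface protein. Ccl4 was 1542 against 26.0 CPM with all cells and 250 against 26.0 CPM without the 2 cells. Ccl5, the chemokine RANTES, went from 422 against 17.0 CPM to 8.68 against 17.0 CPM. Interferon-stimulated genes stayed higher by sums: Irf7, a transcription factor of the interferon response, was 325 against 123 CPM and Bst2, tetherin, 329 against 125 CPM without them. Rsad2, viperin, was 213 against 9.93 CPM, and 75.1 CPM after 1 more cell was left out. Irf7 reached 200 CPM in 8 of 31 and 12 of 80 cells (25.8%, 11.9 to 44.6, against 15%, 8.00 to 24.7). Its medians were 14.2 and 19.3 CPM. Of the 18 interferon response genes, 13 had enough counts and 8 were at least 2-fold higher under A952, where 4.18% of all genes were. Some of these, such as Rsad2, had enough counts only through A952, where they are high, so this count was partly fixed by the filter, and for the summed list the A952 cell was higher in 53.4% of pairs. Of 9 MHC class I genes with enough counts, all 9 were higher under A952 and 1 was at least 2-fold higher. Their median log2 ratio was 0.60, against -0.01 for all genes. For the summed class I list the A952 cell was higher in 63.3% of pairs. Per-cell medians of that sum were 14106 and 8444 CPM, with ranges of 2318 to 24606 and 1346 to 30372 CPM, which overlap.

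The 21 and 33 Cxcr2-positive cells differed in mitochondrially encoded genes. The mitochondrial share, which the rule capped at 25%, had a median of 0.888% under A952 and 3.61% under A951. Of 12 such genes with enough counts, 7 were at least 2-fold lower. At least 1000 counts of the named tag were found in 1 of 21 and 26 of 33 of these cells. Within A951, Cxcr2-low C1q-negative cells had mitochondrial medians of 3.71% at 1000 or more tag counts and 1.94% under it. The part of the tag count in this difference was not tested. Retnlg, a resistin-like protein of neutrophils, was 9692 against 11088 CPM and S100a8 was 36456 against 40688 CPM. In these small sets 15.9% of 2943 genes were at least 2-fold higher and 8.05% at least 2-fold lower, 24% in all. In the cells of the pool that met a neutrophil rule instead, with Csf3r of at least 50 CPM and Csf1r under 50 CPM, the mitochondrial medians were 1.03% in 41 cells named A952 and 4.64% in 95 named A951. Those neutrophils also had a higher H2-Aa sum under A952, 345 against 66.9 CPM, with close medians of 19.4 and 25.2 CPM, and Egr1 of 798 against 606 CPM.

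Taking all 71 and 129 cells without the split, 2.09% of 2920 genes were at least 2-fold higher under A952 and 0.514% at least 2-fold lower, 61 and 15 genes (2.6% in all). With each cell weighted alike they were 49 and 25. After thinning each cell to 25000 counts they were 55 and 59, so the excess of higher genes was not kept at equal depth. This comparison mixes the classes, whose shares differ between the names. Single cells weighed on the sums in each class. Of the genes past 2-fold, 61 of 104 in C1q-negative cells and 247 of 416 in C1q-positive cells fell under it when the cell with most counts of that gene was left out. Ptprc, which encodes CD45, was 251 against 302 CPM in C1q-positive and 822 against 672 CPM in Cxcr2-low C1q-negative cells. The transcript listed as mCherry was 364 against 505 CPM and 402 against 408 CPM, all under 2-fold.

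**Figure D5:**
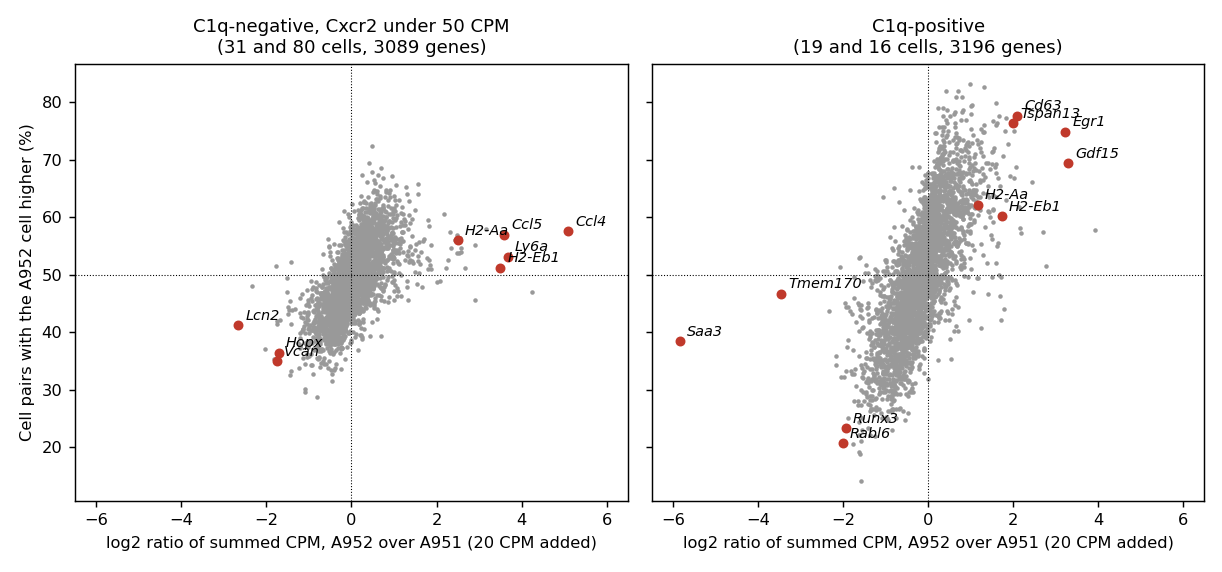
Each point is a gene: log2 ratio of summed CPM, A952 over A951 with 20 CPM added to both (horizontal axis), against the share of cell pairs in which the A952 cell is higher (%, vertical axis). Left, C1q-negative cells with Cxcr2 under 50 CPM, 3089 genes. Right, C1q-positive cells, 3196 genes. Ccl4, Ly6a and H2-Eb1 on the left and Saa3 and Tmem170 on the right have large ratios but between 38.5% and 57.5% of pairs, while Cd63 and Egr1 on the right are high and Rabl6 and Runx3 low on both axes, Rabl6 with a turned direction (0.49) without cells carrying at least 3 neutrophil markers.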

How the data were processed

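One pool of sorted heart cells was measured as a transcriptome and a hashtag library. The transcriptome matrix holds estimated counts per gene and cell as deposited by the authors, not normalized, for 31192 genes; 69.8% of the values above 0 were whole numbers. The hashtag table holds whole counts per tag as deposited by the authors, for 1000000 barcodes. The submitters' processing notes name build GRCm39 and the tools STAR, STARsolo 2.7.10b, R 4.3.1 and cutadapt 4.1 without saying what each did. No source used here says whether molecules or reads were counted, so the intervals may be too narrow. Tag calls are the authors', taken from the cell names, and cells named doublet were left out. No sample was compared, since both names come from 1 pool.

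Counts were divided by the cell or set total to give CPM. Genes with at least 50 counts over both names and 50 CPM in either were compared by log2 ratio of the summed CPM with 20 CPM added to each, so folds of low genes are understated, and 2-fold was the level counted. Printed ratios of sums and their exact intervals (Poisson for sums, Clopper-Pearson for shares and ratios) have nothing added. Genes past 50 counts and 50 CPM include some that pass only through the name where they are high. Genes were named by size, up to 12 in each direction among those seen in at least 25% of the cells of the higher set and 5 cells of both, with the same sign when cells were weighted alike and without the cell with most counts. Up to 4 members of each of 26 gene lists, the monocyte and macrophage markers, Ptprc and mCherry were added. Cd209a, Fcgr1, Flt3 and a few other genes, the Cxcr2 split and the levels at which cells were counted were chosen after their values were seen. Members, lists and markers were chosen with earlier results of these data known. The ratio calculation was tested on simulated data. Python 3.11.15, pandas 2.3.3, NumPy 2.4.6, SciPy 1.17.1 and matplotlib 3.10.9 were used. Sequences are from a RefSeq table of build GRCm38.p6; no coordinate was converted.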

Additional observations from a re-analysis of the deposited data

How the results depend on the processing

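No paired analysis was possible because the pool is 1 sample with no replicate numbers. The C1q-positive share stayed between 26.2% and 28.75% under A952 and between 11.3% and 14.5% under A951 with other Csf1r, C1q, mitochondrial and tag thresholds and with thinning to 25000 counts. It was 46.2% and 33.3% without cells carrying at least 3 neutrophil markers, when 13 and 15 cells were left. Genes past 2-fold numbered 76 in all cells, 104 in C1q-negative and 416 in C1q-positive cells. They numbered 649 in C1q-positive cells with each cell weighted alike. With 1 CPM added they were 149, 247 and 692, with a minimum of 10 counts and 10 CPM 116, 169 and 716, and without the cell with most counts of each gene 42 in all and 265 in C1q-positive cells. Thinning gave 55 higher and 59 lower in all cells, and 124 higher and 429 lower in C1q-positive cells. In C1q-negative cells it gave 173, 101 higher and 72 lower. Leaving out Cxcr2-positive cells, added after seeing the data, gave 197 in C1q-negative cells.

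Without cells carrying 3 neutrophil markers the numbers were 924, 1846 and 1511, from 13 and 15, 7 and 10, and 6 and 5 cells. The direction then turned for Areg (2.67) and Mmp19 (0.29) in C1q-negative cells. In C1q-positive cells it turned for H2-Aa (-0.98), H2-Ab1 (-0.44), Cd74 (-0.70), Fabp5 (-1.15), Mmp12 (-0.80) and Rabl6 (0.49), all log2 ratios. The sign also changed, but to near level, for H2-Eb1 (-0.067), Cd209a (-0.063), Saa3 (0.033) and Airn (0.11). Leaving out the 2 A952 cells with most H2-Eb1, also added after seeing the data, turned C1q-negative H2-Aa (-0.52), H2-Ab1 (-0.48), H2-Eb1 (-0.65) and Ccl5 (-0.38). It left Cd74 (-0.019) near level. These settings leave fewer cells, and beyond that the cause was not tested. With 19 and 16 C1q-positive cells, even 57.9% against 25% of cells gave overlapping counting intervals.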
